A study of Sus scrofa with 3 samples.

Results

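Mitotic cell cycle genes are those whose products carry a cell from the end of DNA replication through division, and 46 of them were chosen by gene symbol for description in pig liver. Of these, 40 were found by symbol among the 34579 features of the deposited tables, and TOP2A, MAD2L1, PRC1, TPX2, BIRC5 and ECT2 were not listed under those symbols. The choice was made with the levels of many of these genes in the same libraries known, so every count of members that differ between libraries is a description and no test of the set. The data were 3 RNA-Seq libraries of whole liver from male Chinese Wuzhishan pigs, a miniature breed, with an age given as 6 to 7 months. The study gives that age for the pigs as obtained, before acclimation and the weeks on the diet, so they were older when the livers were taken. The IM library came from intact males, the CM library from castrated males, and the CMT library from castrated males given intramuscular testosterone propionate, and all groups ate the same diet rich in fat and cholesterol (HFC). Per the labels each library held RNA pooled from 3 pigs, so there was 1 library per group, the spread between animals was not measured, and no test between groups could be made. No library from pigs on a standard diet was analysed here, so the diet was the same on both sides of each comparison. The comparisons were CM with IM, which differ by castration, CMT with CM, which differ by testosterone, and CMT with IM, and the first and the second share the CM library.

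Entry into mitosis is driven by the kinase CDK1 bound to cyclins A and B, and exit from it by the anaphase-promoting complex, a ubiquitin ligase that marks cyclin B and securin for destruction. Many of the genes involved are transcribed late in the cell cycle, under FOXM1 and B-MYB, and are held down in resting cells by repressor complexes with RB-family proteins. In the adult liver most hepatocytes are quiescent, and these genes are known to be induced when the organ regenerates after loss of tissue or cells.

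Of the 40 mitotic genes, 39 had their highest level in the CM library and 1, CKS2, in the CMT library. Among the 37 genes with 1 FPKM or more in each library 36 were highest in CM, where 35.2% of the mRNA features past that minimum were, and 30 were at least 1.5-fold above both other libraries in CM, where 6.87% were. The lowest level was in IM for 24 genes and in CMT for 16. The median FPKM over the 40 genes (fragments per kilobase of transcript, scaled by a factor per library) was 3.92 in IM against 13.8 in CM and 5.40 in CMT. By the recovered reads, the deposited values run higher than FPKM in its usual unit, as set out below. In whole liver, more dividing cells and more of these transcripts per cell cannot be told apart.

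These are low levels, and few reads stood behind many of them. The FPKM values in each library were whole multiples of what 1 read is worth for a given transcript length, and reads could be recovered for 39 of the 40 genes, all but KIF2C. The median was 18 reads per gene in IM against 104 in CM and 15 in CMT. Fewer than 10 reads were recovered for 9 genes in IM, for 9 in CMT and for none in CM, where the fewest were 26. The whole libraries held 32197911 recovered reads in IM against 36127112 in CM and 25420123 in CMT. Ratios below are ratios of FPKM as deposited, with the exact 95% binomial interval of the ratio from the recovered reads, which covers counting error in these libraries only and neither the animals nor the preparation of the libraries. Where 3 values follow a gene without group names, they are for IM, CM and CMT in that order.

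**Figure D1:**
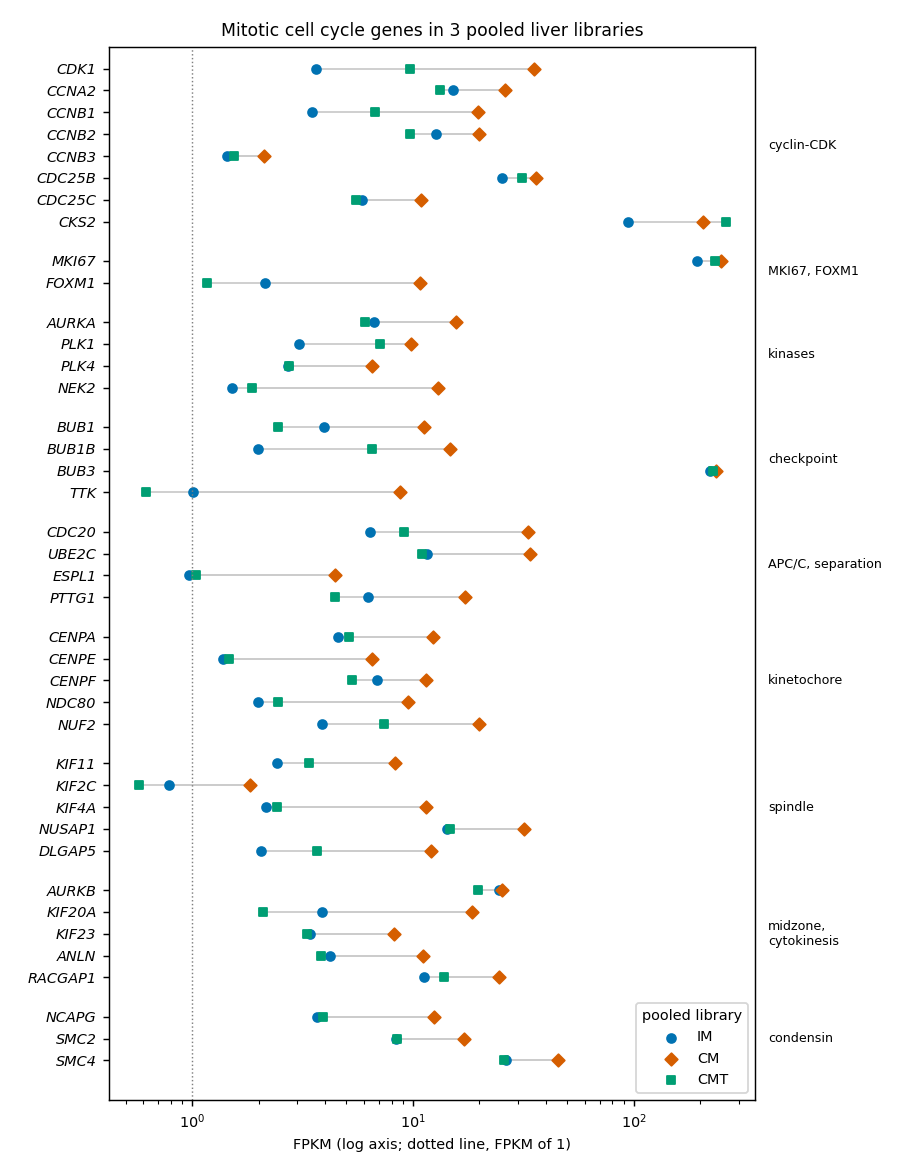
FPKM (log axis) of each of the 40 mitotic genes in the IM, CM and CMT libraries, 1 point per gene and library, with the genes grouped by role. The CM point is the highest for 39 of the 40 genes, and for CKS2 the CMT point is.

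The proteins that switch CDK1 on and off differed among themselves. CDK1, the mitotic kinase, had 3.64 FPKM in IM against 35.2 in CM and 9.71 in CMT, on 6, 79 and 13 reads. Its level in CM was 9.66-fold that in IM (4.25 to 27.1), the largest ratio of any of the 40 genes, and 3.62-fold that in CMT (2.0 to 7.11). CCNB1, a cyclin B, followed the same order at 3.51 in IM against 19.7 in CM and 6.71 in CMT, which was 5.63-fold higher in CM than in IM (3.43 to 9.78). The other two widely expressed mitotic cyclins were higher outside CM and differed less. CCNB2 had 12.7 FPKM in IM against 19.8 in CM and 9.69 in CMT, and CCNA2, which also acts in S phase, had 15.2, 26.2 and 13.3. CCNB3, a cyclin B best known from germ cells, stayed at 1.44 in IM against 2.12 in CM and 1.56 in CMT, and its interval for CM to IM (0.782 to 2.86) included 1. The phosphatases that remove the inhibitory phosphates from CDK1 had smaller ratios than CDK1 itself. CDC25B had 25.2 FPKM in IM against 36.0 in CM and 31.3 in CMT, with a CM to IM ratio of 1.43 (1.12 to 1.84), and CDC25C had 5.86, 10.9 and 5.51, a ratio of 1.86 (1.04 to 3.47).

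CKS2, a small subunit that docks on cyclin-dependent kinases, was the one member highest in CMT. Its FPKM was 94.3 in IM against 205 in CM and 261 in CMT, on 80, 237 and 180 reads. The CM level was 2.17-fold that in IM (1.68 to 2.84), and the CMT level was 2.77-fold that in IM (2.12 to 3.65) and 1.27-fold that in CM (1.04 to 1.55). On the log2 scale the CMT to CM difference of CKS2 was 0.35 as deposited and 0.10 after scaling the libraries to equal column sums. CKS2 alone made up much of the summed FPKM of these 8 genes, which was 161.9 in IM against 354.9 in CM and 338.8 in CMT.

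FOXM1, a transcription factor of late cell cycle genes, stood at 2.14 FPKM in IM against 10.7 in CM and 1.17 in CMT, on 18, 123 and 8 reads. It was 5.02-fold higher in CM than in IM (3.04 to 8.74) and 9.17-fold higher in CM than in CMT (4.51 to 21.7). The kinases of the centrosome and spindle were at similar levels. NEK2, which helps to part the centrosomes, had 1.51 FPKM in IM against 13.0 in CM and 1.86 in CMT, an 8.62-fold CM to IM ratio (4.20 to 20.6). AURKA, which builds the spindle poles, had 6.65, 15.7 and 6.03, and PLK4, the kinase of centriole duplication, had 2.73, 6.55 and 2.74. For both genes CM was more than 2-fold above the other two libraries, which lay within 1.5-fold of each other. PLK1, which acts from mitotic entry to cytokinesis, had 3.06 in IM against 9.83 in CM and 7.06 in CMT, and its CMT level was closer to CM, at a CM to CMT ratio of 1.39 (0.741 to 2.74) on 35 and 15 reads.

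The spindle checkpoint holds anaphase back until every chromosome is attached, and its genes split into BUB3 and the rest. BUB3, which also binds checkpoint-independent partners, had 222 FPKM in IM against 236 in CM and 228 in CMT, on 798, 1160 and 666 reads, and the CM to IM ratio was 1.07 (0.974 to 1.17). TTK, the kinase at the top of the checkpoint, had 1.01 in IM against 8.70 in CM and 0.621 in CMT, on 4, 47 and 2 reads. Its CM level was 14.0-fold that in CMT, with an interval of 3.67 to 119 that shows how little those 2 reads fix. BUB1B, the pseudokinase BUBR1, had 2.0, 14.6 and 6.55 on 3, 30 and 8 reads. BUB1, a kinase that recruits the other checkpoint proteins, had 3.96, 11.3 and 2.44 on 8, 31 and 4 reads. In these 3 genes CM was highest, and the 2 lower libraries were within counting error of each other.

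Genes of anaphase and sister separation differed by large ratios between CM and each of the other libraries. CDC20, the activator of the anaphase-promoting complex that the checkpoint blocks, had 6.37 FPKM in IM against 33.1 in CM and 9.15 in CMT, and CM was 5.20-fold above IM (2.83 to 10.5) and 3.62-fold above CMT (2.04 to 6.90). UBE2C, the ubiquitin-conjugating enzyme of that complex, had 11.6, 34.0 and 11.0, with CM to IM and CM to CMT ratios of 2.94 (1.58 to 5.88) and 3.10 (1.56 to 6.85). PTTG1, which is securin, the inhibitor of separase, had 6.28, 17.1 and 4.42 on 7, 26 and 4 reads. ESPL1, separase itself, was lower throughout at 0.967, 4.44 and 1.04. The summed FPKM of the 4 genes was 25.2 in IM against 88.7 in CM and 25.6 in CMT, so IM and CMT differed little.

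The kinetochore genes, whose products tie chromosomes to microtubules, were all at least 1.5-fold higher in CM than in IM and at least 1.5-fold lower in CMT than in CM, in 5 of 5 cases, where 11.1% of the mRNA features past the minimum were higher and 13.5% lower in those comparisons. NUF2 and NDC80 encode partners in one complex that grips the microtubule. NUF2 had 3.85 FPKM in IM against 19.8 in CM and 7.38 in CMT, and NDC80 had 2.0, 9.52 and 2.46, with CM to IM ratios of 5.14 (3.12 to 8.95) and 4.77 (2.25 to 11.6). CENPE, a kinetochore motor, had 1.38, 6.54 and 1.47, with a CM to IM ratio of 4.75 (2.74 to 8.81). CENPA, the histone H3 variant that marks centromeres, had 4.57, 12.3 and 5.15, a ratio of 2.69 (1.40 to 5.60). CENPF, a large outer kinetochore protein, differed least, at 6.87, 11.5 and 5.28 with a ratio of 1.67 (1.29 to 2.17).

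Among the spindle motors and microtubule proteins the CM library was again the highest in each case. KIF4A, a motor that binds chromosomes and shapes the central spindle, had 2.16 FPKM in IM against 11.5 in CM and 2.44 in CMT, on 12, 87 and 11 reads. DLGAP5, which stabilises the microtubules near chromosomes, had 2.06, 12.1 and 3.66, and KIF11, the motor that pushes the spindle poles apart, had 2.42, 8.32 and 3.38. Their CM to IM ratios were 5.32 (2.90 to 10.7), 5.87 (2.93 to 13.4) and 3.44 (2.29 to 5.33). NUSAP1, a microtubule bundling protein, was the most abundant of the group at 14.2, 31.7 and 14.6. KIF2C, a microtubule depolymerase, was at 0.787, 1.83 and 0.572, the lowest summed level of the 40 genes, and no interval could be given for it.

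Cytokinesis genes included the steepest difference between CM and CMT past the minimum used below, after that of FOXM1. KIF20A, a motor that carries the chromosomal passenger complex to the midzone, had 3.87 FPKM in IM against 18.5 in CM and 2.08 in CMT on 16, 104 and 7 reads, so that CM was 8.86-fold above CMT (4.15 to 22.6). KIF23 and RACGAP1 form the centralspindlin complex and had 3.42, 8.24 and 3.31, and 11.2, 24.6 and 13.8. ANLN, the scaffold of the contractile ring, had 4.19, 11.1 and 3.82, with a CM to IM ratio of 2.66 (1.93 to 3.71). AURKB, the kinase of the passenger complex, differed from the other 4 and was nearly level at 24.6, 25.4 and 19.7. Its ratio was 1.03 for CM to IM (0.758 to 1.41) and 1.29 for CM to CMT (0.910 to 1.86).

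The condensin genes, whose products compact chromosomes, were at least 1.5-fold higher in CM than in both other libraries. SMC2 had 8.37 FPKM in IM against 17.1 in CM and 8.43 in CMT on 116, 322 and 95 reads, and CM was 2.04-fold above IM (1.64 to 2.54) and 2.02-fold above CMT (1.60 to 2.57). SMC4, its partner ATPase, had 26.4, 45.2 and 25.9, with a CM to IM ratio of 1.71 (1.40 to 2.09). NCAPG, a subunit of condensin I, had 3.67, 12.4 and 3.92, a ratio of 3.38 (2.26 to 5.19). For all 3 genes the CMT to IM ratio lay between 0.981 and 1.07.

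Counting all roles, 37 of the 40 genes reached 1 FPKM or more in each of the 3 libraries, and TTK, ESPL1 and KIF2C did not. The minimum applied to every library, so it left out genes that are low in IM or CMT. Of the 37, 32 were at least 1.5-fold higher in CM than in IM and 0 at least 1.5-fold lower, where 11.1% of 15613 mRNA features past the same minimum were higher and 12.1% lower. In CMT against CM, 30 of the 37 were at least 1.5-fold lower and 0 higher, where 13.5% of those features were lower and 12.1% higher. The genes had been chosen with these ratios known, and nothing is read from the gap. Of the 37 genes, 27 were at least 2-fold, 12 at least 4-fold and 2 at least 8-fold higher in CM than in IM, and 26, 6 and 2 were lower by those folds in CMT than in CM. The counting interval left out 1 for all 32 and all 30 genes past 1.5-fold. Shares of all features for these larger folds and for the interval are not given here. The median log2 ratio of all 40 genes was 1.44 in CM to IM, -1.35 in CMT to CM and 0.07 in CMT to IM, and of the 37 it was 1.43, -1.30 and 0.09. Over the 15613 mRNA features it was -0.02, 0.01 and -0.01 in the same order.

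**Figure D2:**
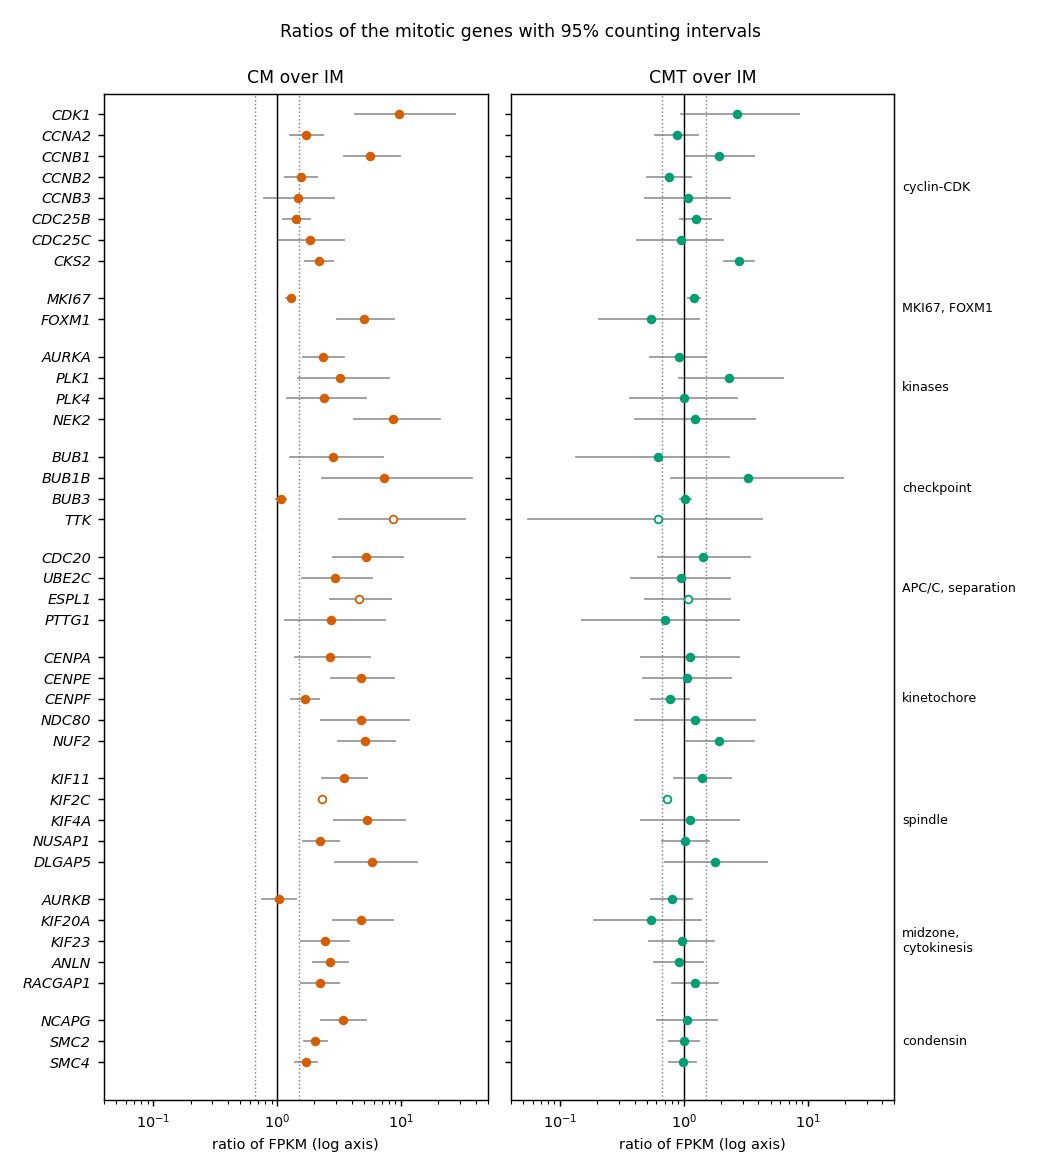
Ratio of FPKM (log axis) for each of the 40 mitotic genes in CM over IM (left) and CMT over IM (right), with a line for the exact 95% binomial interval from recovered reads, dotted lines at 1.5-fold in each direction, open points for the 3 genes under the minimum, and no interval for KIF2C. In CM over IM the interval leaves out 1 for 36 of 39 genes, and in CMT over IM for 4 of 39, and the share over all features is not given.

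In CMT against IM, the comparison that does not use the CM library, most of the genes differed less. Of the 40, 29 were within 1.5-fold. Of the 37 past the minimum 27 were, where 12995 of 15613 mRNA features were. Among the 37, 7 were at least 1.5-fold higher in CMT and 3 at least 1.5-fold lower. Of the mRNA features, 6.67% were higher and 10.1% lower. The 7 were CDK1, CCNB1, CKS2, PLK1, BUB1B, NUF2 and DLGAP5, and the 3 were BUB1, KIF20A and FOXM1. Only for CKS2, CCNB1 and NUF2 of these 10 did the counting interval leave out 1, and for CCNB1 and NUF2 it began at 1.02. At this depth a 1.5-fold difference between IM and CMT was not detectable for most single mitotic genes. Pooled reads were divided by the factor of each library behind its FPKM values, 2.51 in IM, 3.42 in CM and 2.04 in CMT. These factors were not in proportion to the recovered reads of the whole libraries. Over the 39 members with reads, the division gave a ratio of 1.13 for CMT over IM (1.07 to 1.19). It was 1.74 for CM over IM (1.66 to 1.82) and 1.54 for CM over CMT (1.47 to 1.61). Over all members but MKI67, BUB3 and CKS2, which had the highest levels, pooled reads in CMT were 1.03-fold those in IM after the same division (0.948 to 1.12). Pooled reads in CM were 2.45-fold those in IM (2.3 to 2.62) and 2.38-fold those in CMT (2.22 to 2.55). These 3 genes to leave out were chosen after their values were seen.

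The ratios went with the level. The 7 genes with a mean FPKM of at least 20 had a median of 0.52 on the log2 scale in CM to IM and -0.20 in CMT to CM. Of these 7, 3 were at least 1.5-fold higher in CM than in IM. The share of all features at that level is not given here. The other 33 genes held 30 past the minimum, with medians of 1.62 and -1.48. Of these 30 genes, 29 were at least 1.5-fold higher in CM than in IM and 28 at least 1.5-fold lower in CMT than in CM. Of the 4592 mRNA features of that level 22% and 28% were, against 11.1% and 13.5% of all 15613 past the minimum. The summed FPKM of all 40 genes was 751.5 in IM against 1306.2 in CM and 981.3 in CMT, and without MKI67, BUB3 and CKS2 it was 242.0, 616.7 and 259.2.

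**Figure D3:**
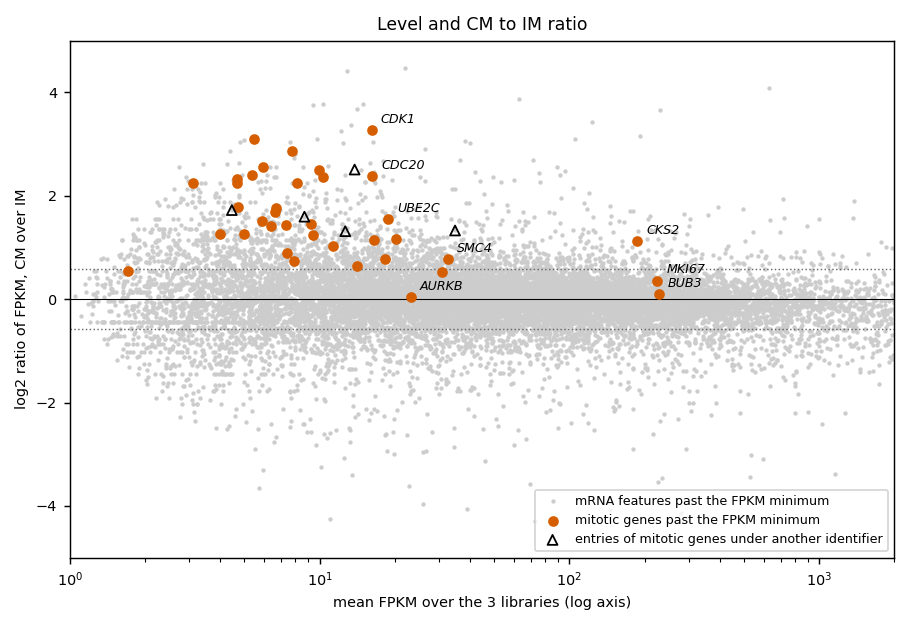
Log2 ratio of FPKM in CM to IM against the mean FPKM of the 3 libraries (log axis) for mRNA features that reached 1 FPKM in each library (grey), for the 37 mitotic genes past that minimum (orange), and for entries of mitotic genes under another identifier (open triangles), with dotted lines at 1.5-fold in each direction. Features above a mean FPKM of 2000 or beyond a log2 ratio of 5 (507 in all) are outside the axes, and MKI67 and BUB3, with the highest means of the mitotic genes, have ratios of 1.28 and 1.07.

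MKI67 is the gene of the Ki-67 antigen and the usual marker of dividing cells. The entry listed under this symbol was among the few members with a high and nearly level FPKM. The entry of that name had 194 FPKM in IM against 248 in CM and 234 in CMT, on 754, 1316 and 739 reads, and CM was 1.28-fold above IM (1.17 to 1.40) and 1.06-fold above CMT (0.970 to 1.16). A later RefSeq annotation of the pig, Sscrofa11.1, gives the symbol MKI67 to another gene identifier, listed in these tables as LOC102164100. That entry had 5.38 FPKM in IM against 16.3 in CM and 4.45 in CMT, on 67, 276 and 45 reads. Its CM level was 3.02-fold that in IM (2.31 to 4.01) and 3.66-fold that in CMT (2.66 to 5.13). The level of LOC102164100 and its order across the libraries were those of the low mitotic genes, while the entry named MKI67 was in the range of BUB3. The recovered length was 1551 bases for the entry named MKI67 and 4961 bases for LOC102164100, and both are fixed only up to a common divisor. Which of the 2 entries measures the Ki-67 transcript was not tested.

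The same annotation assigns further entries to members. TOP2A, the topoisomerase that untangles chromosomes before they part, was listed as TOPOII at 8.85 in IM against 22.0 in CM and 7.14 in CMT, and CM was 2.49-fold above IM (2.04 to 3.06) and 3.08-fold above CMT (2.43 to 3.94). MAD2L1, the checkpoint protein that captures CDC20, was listed as LOC100523455 at 25.1, 63.0 and 16.5, with ratios of 2.51 (1.98 to 3.21) and 3.83 (2.82 to 5.30). TPX2, an activator of AURKA, was listed as LOC100525546 at 5.23, 29.8 and 6.44, with ratios of 5.69 (2.71 to 13.8) and 4.62 (2.21 to 11.2). All 3 had their highest level in CM. A second entry for BUB1, LOC100627208, had 2.72, 8.98 and 1.67 beside 3.96, 11.3 and 2.44 for the entry named BUB1, and how reads were shared between these entries is not given in the sources used here. No entry was found for PRC1, BIRC5 or ECT2.

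**Figure D4:**
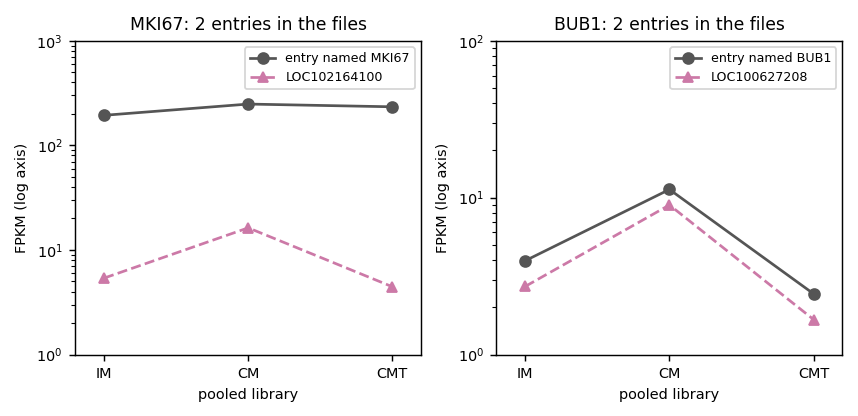
FPKM (log axis) in the IM, CM and CMT libraries, 1 point per library joined by a line, of the entry named for MKI67 (left) or BUB1 (right) and of the entry to which RefSeq Sscrofa11.1 gives the same symbol (triangles, dashed). The entry named MKI67 lies between 194 and 248, and the entry LOC102164100, between 4.45 and 16.3, while both BUB1 entries have their highest point in CM.

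Other genes of the division machinery were less uniform than the members. Of 59 further mitotic genes, 52 were found and 48 of these were highest in CM. Past the minimum 37 of 41 were, where 35.2% of the mRNA features past it were. Of the 41, 29 were at least 1.5-fold higher in CM than in IM and 1 lower. Of those features 11.1% and 12.1% were. In CMT 28 were at least 1.5-fold lower than in CM, where 13.5% of the features were. The median log2 ratios were 0.88 for CM to IM and -0.88 for CMT to CM. The 4 most abundant further mitotic genes differed little in part. CKS1B, the paralogue of CKS2, had 133 FPKM in IM against 149 in CM and 142 in CMT, and NCAPD2, a condensin subunit, had 34.2, 29.2 and 28.7. CENPQ, an inner kinetochore protein, had 24.6, 37.8 and 24.1, and SKA2, an outer one, had 18.1, 30.4 and 29.2. By contrast, the subunits of the anaphase-promoting complex and of cohesin, which are made throughout the cell cycle, lay near even, with medians of 0.08 for CM to IM and 0.08 for CMT to CM over 24 genes. The most abundant was ANAPC13, a small subunit of the complex, at 587, 687 and 768. Among the 24, 1 was at least 1.5-fold higher in CM than in IM and 1, SMC1A, was at least 1.5-fold lower. SMC1A was at 440 in IM against 158 in CM and 410 in CMT.

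Upstream of mitosis, 14 of 25 genes of the G1/S transition and DNA synthesis past the minimum were at least 1.5-fold higher in CM than in IM, 0 were lower, and 13 were lower in CMT than in CM. TYMS, thymidylate synthase, had 52.8 FPKM in IM against 470.4 in CM and 51.3 in CMT, whereas CDK4, a kinase of G1, had 595, 599 and 629. RRM1, the large subunit of ribonucleotide reductase, had 268, 314 and 284. MCM and licensing genes, which load and fire replication origins, numbered 15 past the minimum. Of these, 10 were at least 1.5-fold higher in CM than in IM and 8 at least 1.5-fold lower in CMT than in CM. MCM4, a subunit of the replicative helicase, was at 27.9, 90.7 and 20.4, while GMNN, which blocks relicensing, was at 101, 112 and 120 and DBF4, which activates the origin kinase CDC7, at 51.7, 53.2 and 56.0. CDC45, a helicase cofactor, was at 39.0, 49.2 and 41.2. Of the D-type cyclins, CCND3 was at 174, 226 and 172 and CCND1, listed as LOC100738589, at 25.5, 50.4 and 31.3. CCND2 was at 2.79, 6.14 and 13.7, highest in CMT on 4, 12 and 16 reads. All of these lists were drawn up with earlier results of these data known.

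Genes that restrain the cycle did not share one order. Past the minimum were 13 CDK inhibitors and other brakes. Of these, 6 were at least 1.5-fold higher in CM than in IM and 2 lower, where 11.1% and 12.1% of the mRNA features were. In CMT against CM 6 were at least 1.5-fold lower and 1 higher, where 13.5% and 12.1% of the features were. BTG2, an antiproliferative gene, had 1533 FPKM in IM against 716 in CM and 652 in CMT, and its relative BTG1 had 734, 906 and 596. CCNG1, a p53 target, had 441, 643 and 469, and GADD45B, a stress-induced gene, had 616, 294 and 538. The list of DREAM complex, RB family and related genes had medians of -0.05 for CM to IM and 0.04 for CMT to CM over 13 genes past the minimum. Complexes with RB-family proteins repress cell cycle genes in resting cells. Of these 13 genes 3, which were LIN9, RBL1 and MYBL2, were at least 1.5-fold higher in CM than in IM and 0 at least 1.5-fold lower. In CMT 2 of the 13 were at least 1.5-fold lower than in CM. MYBL2 encodes B-MYB, under which late cell cycle genes are transcribed, and is not counted as a repressor of them. Among the most abundant, RBBP4, a histone-binding subunit, was at 657, 626 and 644, and the RB-family gene RBL2 at 357, 265 and 311. E2F4, the repressive E2F of the complex, was at 104, 100.2 and 107, and LIN37, a core subunit, was at 97.6, 89.1 and 96.5.

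The libraries also differed in markers of cell types that liver holds. Hepatocyte markers had the highest levels, with ALB at 690370 in IM against 476360 in CM and 445510 in CMT, and their summed FPKM was lowest in CM, at 1044300, 764510 and 825630. All 11 T or NK cell markers found were highest in CM, where 35.2% of the mRNA features past the minimum were. The summed FPKM of these markers was 767.1, 1024.7 and 635.7. Their levels included NKG7 at 166, 218 and 151, KLRK1 at 120, 177 and 117, CD4 at 114, 120 and 119, and CD2 at 84.9, 117 and 56.5. Of these 11, 1 was at least 1.5-fold higher in CM than in IM, where 11.1% of those mRNA features were. In CMT, 8 were at least 1.5-fold lower than in CM, where 13.5% of the features were. All 5 cholangiocyte markers were highest in CM too, with a summed FPKM of 93.8, 166.6 and 105.5. EPCAM was at 36.6, 62.6 and 41.4, KRT7, listed as LOC100626722, at 12.9, 46.1 and 21.8, KRT19, listed as LOC100515339, at 36.5, 44.3 and 34.7, and CFTR at 4.34, 7.31 and 3.34.

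The other marker lists did not share one order. Summed FPKM in IM, CM and CMT was 21681, 19934 and 22704 for 8 macrophage markers, 220.0, 195.4 and 239.4 for 7 B or plasma cell markers, and 3566, 2929 and 3322 for 6 endothelial markers. It was 1511, 1605 and 1345 for 8 stellate cell or fibroblast markers and 100.8, 60.4 and 41.2 for 5 neutrophil markers. Erythroid markers, 6 of 7 found, were highest in IM at 17243, 3416 and 5187, nearly all of it HBB. Of the same list, ALAS2 was at 77.5, 16.2 and 30.6, and KLF1 was listed at 0 in all 3 libraries. The part of any of these cell types in the levels of the mitotic genes was not tested.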

How the data were processed

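Total RNA of the liver was pooled by the authors within each group, and 1 TruSeq library per group was sequenced on an Illumina HiSeq 2000. Reads were mapped with TopHat to the pig genome, and the deposited FPKM values of the authors were used as given, with no further scaling. The program that counted reads, and its treatment of reads with several placements, are not given in the sources used here. The labels give 3 pigs per pool, while the methods of the study describe larger groups. Groups were taken from the sample titles.

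Members and gene lists were chosen with earlier results of these data known. Every member listed was named, and of the other lists up to 4 genes each were named, taken from the 4 with the highest mean FPKM, of which 1 is not reported here; others named were chosen after their values were seen. In lists other than the members, 188 genes were matched by symbol, 4 by an older symbol, 18 by gene identifier and 1 by synonym in RefSeq Sscrofa11.1, and 16 were not found. That assembly is later than the one the authors mapped to, so its names and none of its coordinates were used.

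Reads were recovered as FPKM multiplied by a library factor, 2.51 (IM), 3.42 (CM) or 2.04 (CMT), and by a length common to the libraries. Lengths of 50 to 10000 bases were tried, and all 3 products had to be whole within a tolerance of 0.0001. This gave reads for 95.1% of the features above 0. The factor and length are fixed only up to a common divisor, so intervals may be too wide. Of the members' read numbers, 65.0% were even, and if both mates of pairs were counted the intervals are too narrow. Ratios were counted for features with 1 FPKM or more, as deposited, in each library, with a threshold of 1.5-fold. Intervals were exact (Clopper-Pearson) at 95%. The recovery of reads was tried on simulated data with the library factors given, so the estimate of these factors was not tried. The intervals were tried there only for genes with many reads, which does not cover the few reads of many members. Alternatives were a 2-fold threshold, the counting interval, a minimum of 10 FPKM or no minimum, a pseudocount of 1, and 4 scalings. Python 3.11.15, numpy 2.4.6, pandas 2.3.3, scipy 1.17.1 and matplotlib 3.10.9 were used.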

Additional observations from a re-analysis of the deposited data

How the results depend on the processing

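No paired analysis was possible because each group was 1 library, and for the same reason no library could be left out. A minimum of 10 FPKM left 10 of the 37 members. With it, 6 of the 10 were at least 1.5-fold higher in CM than in IM (32 of 37 as reported). In CMT 5 of the 10 were at least 1.5-fold lower than in CM (30 of 37). The share of all features past that minimum is not given here. In CMT against IM the 7 higher genes became 4 at 2-fold, 3 by the counting interval, 1 with reads halved and 1 with a minimum of 10, and the 3 lower genes became 0 under each of these. The list of further mitotic genes, which holds other genes, had 1 lower in CM than in IM and 6 lower in CMT than in IM.

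The median of CM to IM (log2) was 1.43 as reported, 1.26 with a pseudocount of 1, 0.78 with a minimum of 10, 1.49 scaled by upper quartile, 1.71 by summed reads, 1.69 by column sums and 0.88 in the further mitotic genes. That of CMT to CM was -1.30 as reported and -1.10, -0.59, -1.42, -1.54, -1.55 and -0.88 in the same order. That of CMT to IM was 0.09, and with the other sign, -0.023, in the further mitotic genes. Scaling by summed reads moved the median of all genes to 0.26 for CM to IM and -0.23 for CMT to CM, scaling by column sums to 0.24 and -0.23, and scaling by upper quartile to -0.11 for CMT to CM. The log2 ratio of summed FPKM in CM to IM was 0.80, and 0.86, 1.08 and 1.05 under the 3 scalings, 1.01 without BUB3 and 1.35 without MKI67, BUB3 and CKS2. In CMT to CM it was -0.41, and -0.54, -0.65, -0.66, -0.51 and -1.25 in that order, and -0.62 from recovered reads. In CMT to IM it was 0.38, 0.51 without BUB3, 0.10 without the 3 genes and 0.17 from recovered reads. Halving the reads and leaving out the 3 genes were chosen after seeing the data. The causes were not tested. Of 600 values of single genes recomputed, 577 stayed within counting error, and the 23 others were of MKI67, BUB3 and KIF2C.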

Other observations

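The genes named here were chosen after their values were seen. PBK, a mitotic kinase outside the 40 members, had the largest CM to IM ratio of the further mitotic genes past the minimum, at 2.54 FPKM in IM against 32.4 in CM and 7.49 in CMT, which was 12.8-fold (6.78 to 27.1). MASTL, the kinase that holds back the phosphatase opposing CDK1, was at 1.30, 7.97 and 3.47. CDC25A, listed as LOC100737380, was the one further mitotic gene whose CM level was below that of IM by 1.5-fold or more, at 25.4, 16.2 and 15.6, so the 3 CDC25 phosphatases did not share an order. HJURP, the chaperone that loads CENPA, had the lowest CMT to IM ratio of the further mitotic genes past the minimum, at 6.05, 12.6 and 1.18 on 38, 108 and 6 reads, a ratio of 0.194 (0.0671 to 0.463).

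Several genes of S phase had their highest level in CM, and others did not. MCM2 and MCM3, subunits of the replicative helicase, were at 6.79, 35.0 and 6.91 and at 5.71, 36.3 and 11.7. E2F1, an activator of S-phase genes, was at 8.89, 28.7 and 8.31, and RRM2, the small subunit of ribonucleotide reductase, was at 25.1, 124 and 30.1, while its partner RRM1 differed by less than 1.5-fold. POLA1, the catalytic subunit of the primase-polymerase, was level at 8.65, 8.35 and 8.96. Some brakes on division had the same order. CDKN1A, the inhibitor p21, was at 159, 287 and 101, with a CM to IM ratio of 1.80 (1.66 to 1.95), and WEE1, the kinase that inhibits CDK1, was at 11.1, 25.2 and 5.21. MYBL2, which encodes B-MYB and is not a brake, was at 10.9, 19.2 and 6.88. The one subunit of the anaphase-promoting complex past 1.5-fold in CM to IM was ANAPC10, listed as APC10, at 16.8, 26.3 and 14.7 with an interval of 0.809 to 3.21 that included 1, and the one T or NK cell marker was GZMA, at 51.1, 82.7 and 37.4.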
